A study of Mus musculus with 8 samples.

Results

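Mineral formation outside cells is set by the balance between inorganic phosphate, which is needed for mineral, and inorganic pyrophosphate, which blocks it. The 10 genes described here make, export or destroy pyrophosphate, bring phosphate into the cell, or take phosphate off nucleotides outside the cell, and they were followed in mouse notochord-derived cells (NDCs) before and after the notochord had become the nucleus pulposus (NP). They are Alpl, Enpp1, Ank, Abcc6, Phospho1, Slc20a1, Slc20a2, Entpd1, Nt5e and Acpp, taken by name from the 43346 gene identifiers counted. The genes were selected on their roles with the read counts of these same samples, and so their differences between the stages, in view. The stage difference of each is therefore given as a description, without a p-value.

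RNA was sequenced from 4 litters at embryonic day 12.5 (E12.5) and 4 litters at postnatal day 0 (P0), the day of birth, with the embryos or pups of 1 litter pooled into 1 library. Every animal carried the same alleles, Shh-cre;ROSA:YFP, in which the Shh promoter drives the recombinase, so that yellow fluorescent protein marks cells that express or once expressed Shh together with all of their descendants. The E12.5 libraries (litters NDP10.2, NPD3, NPD4 and NPD9.2) came from whole notochords that were dissected and dropped straight into TRIzol, whereas the P0 libraries (NPD26, NPD27, NPD28 and NPD30) came from NP cells that were freed mechanically and sorted for the fluorescent protein. Because isolation changed together with age, the effects of age and of isolation cannot be told apart. In such bulk libraries fewer cells of a type and less RNA per cell cannot be told apart either.

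Between 4442775 and 8904050 reads per library fell on genes, and these were 22.6% to 34.8% of all tallied reads, with the E12.5 litters NDP10.2 and NPD9.2 lowest in that share at 22.6% and 24.6%. Levels are given as CPM, the reads of a gene scaled by edgeR's TMM method to a common library size, where 3 counts, taken as the smallest usable signal, correspond to 0.353 to 0.738 CPM depending on the library. The notochord marker T was present in every library at 242 to 2323 CPM, Noto was at or near 0 in all of them, and Shh ranged from 420 to 1348 CPM at E12.5 and from 0.157 to 11.8 CPM at P0. Marker genes of other cell types were read in both stages. The summed level of 7 macrophage markers lay between 59.1 and 116 CPM at E12.5, was 4665, 5192 and 1678 CPM in NPD26, NPD27 and NPD28, and was 61.4 CPM in NPD30, within the E12.5 range. The 6 osteoblast markers summed to between 262 and 1319 CPM at the earlier stage and between 3149 and 12127 CPM at the later, and most of that sum at P0 was Col1a1, at 2845 to 11487 CPM. Of the same list Dmp1 was at 0 in every E12.5 library, and Runx2 was at 25.0 to 81.4 CPM at E12.5 and 23.4 to 50.8 CPM at P0.

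Pyrophosphate outside the cell comes mainly from nucleotides: ANK (also called ANKH) and ABCC6 let ATP or pyrophosphate out of the cell, and ENPP1 cuts ATP into AMP and pyrophosphate. Tissue-nonspecific alkaline phosphatase, the product of Alpl, splits pyrophosphate into phosphate, and mice that lack working ANK or ENPP1 are known to lay down mineral in the joints of the spine, whose NP normally stays free of it. The same nucleotides are signals, since ENTPD1 (CD39) strips ATP and ADP to AMP, NT5E (CD73) turns AMP into adenosine, and a transmembrane form of prostatic acid phosphatase, from Acpp (also called Acp3), can do so as well.

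At P0 Acpp and Alpl stood far above their E12.5 level in every litter, Entpd1 did so in 3 of 4 litters, and Nt5e and Ank were higher by less. Acpp was 66.7-fold, Alpl 19.8-fold, Entpd1 15.1-fold, Nt5e 3.94-fold and Ank 2.88-fold higher at P0 in the fitted model, Slc20a2 was 2.25-fold higher at E12.5, and the stages overlapped for Enpp1, Abcc6 and Slc20a1. Of the 10 genes, 9 passed the filter on low counts, all but Phospho1. Of these 9, 6 lay past an adjusted p of 0.05 in edgeR's quasi-likelihood test with Benjamini-Hochberg adjustment, 5 higher and 1 lower at P0, where 27.9% of the 15467 genes tested passed (16.0% higher, and 1853 genes lower). The 4 P0 litters all lay above the 4 E12.5 litters for 5 of the 9 and all below for 1, where 15.5% and 14.4% of the genes tested did so. The median log2 fold change was 1.53 over the 9 and 0.04 over all genes tested. The rule that chose the genes rests on this contrast, so nothing is read from these shares. The plot of levels by litter shows each gene in each library.

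**Figure D1:**
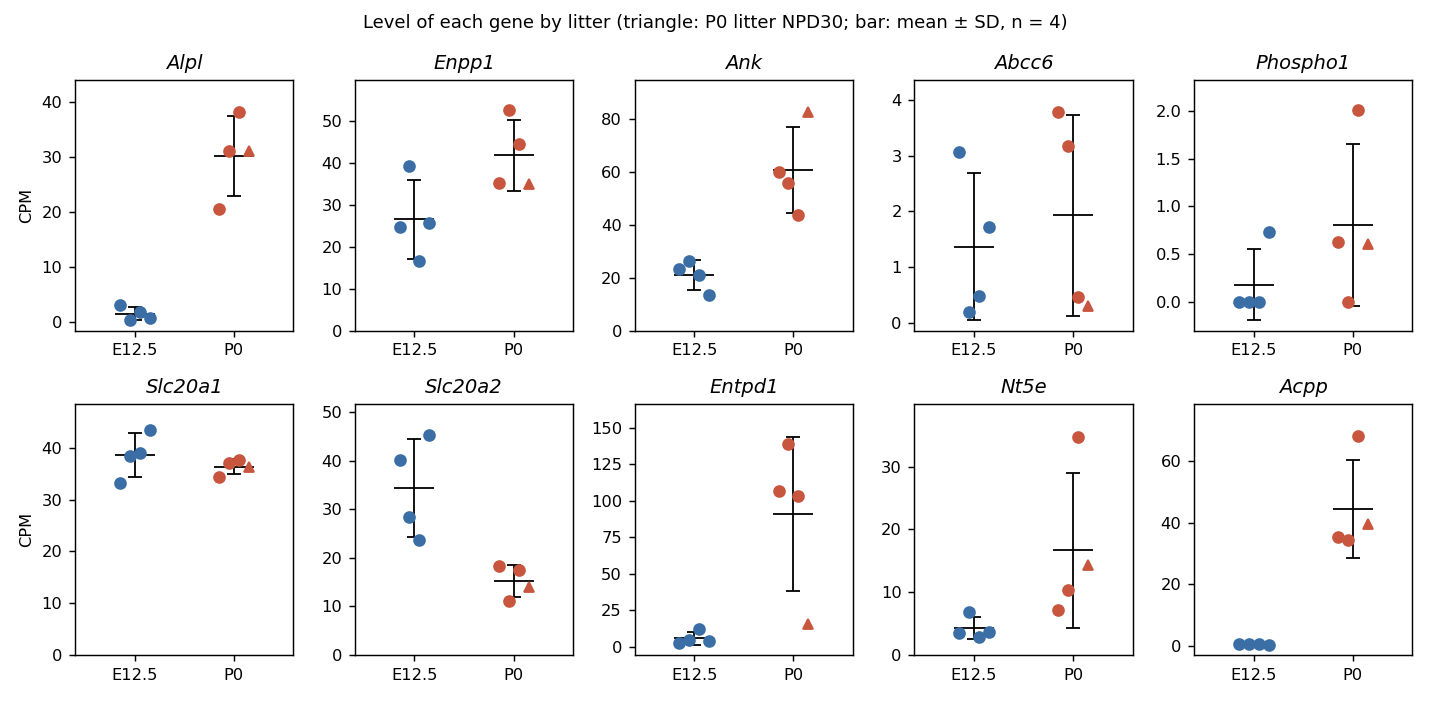
Level of the 10 genes in CPM (y axis, a separate scale for each gene) in the 4 E12.5 litters (blue) and the 4 P0 litters (red, with NPD30 as a triangle), with the mean and SD of each stage. The P0 points of Alpl, Ank, Entpd1, Nt5e and Acpp all lie above the E12.5 points, those of Slc20a2 all lie below, and those of the other 4 genes overlap.

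The stretches just upstream of the first listed start sites of the 4 genes with the highest P0 level per length apart from Slc20a1 are printed here. They show how unlike these genes are at that site: Ank and Alpl begin in GC-rich sequence, Acpp does not. RefSeq promoters on GRCm38.p6 were found for 8 of the 10 genes, Slc20a2 and Abcc6 being the ones without. Each line gives the 250 bases before the start, 5′ to 3′ on the strand of the gene, and capitals mark matches to the motifs searched.
Ank, chr15:27466427-27466676, plus strand: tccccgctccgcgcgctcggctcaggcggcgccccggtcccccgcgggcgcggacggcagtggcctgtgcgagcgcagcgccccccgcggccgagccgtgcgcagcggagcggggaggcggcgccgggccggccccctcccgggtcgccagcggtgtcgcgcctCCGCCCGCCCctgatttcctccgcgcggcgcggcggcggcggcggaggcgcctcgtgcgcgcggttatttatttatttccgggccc
Alpl, chr4:137796385-137796634, minus strand: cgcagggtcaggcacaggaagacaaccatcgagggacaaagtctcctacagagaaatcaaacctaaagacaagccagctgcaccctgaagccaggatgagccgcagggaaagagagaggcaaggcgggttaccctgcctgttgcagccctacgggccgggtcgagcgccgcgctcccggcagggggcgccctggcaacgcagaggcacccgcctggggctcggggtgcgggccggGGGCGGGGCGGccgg
Entpd1, chr19:40612116-40612365, plus strand: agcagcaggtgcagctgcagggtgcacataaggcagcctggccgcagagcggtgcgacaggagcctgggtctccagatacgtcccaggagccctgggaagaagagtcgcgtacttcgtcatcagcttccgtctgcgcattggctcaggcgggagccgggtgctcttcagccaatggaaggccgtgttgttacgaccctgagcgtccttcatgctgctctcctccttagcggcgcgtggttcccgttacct
Acpp, chr9:104337723-104337972, minus strand: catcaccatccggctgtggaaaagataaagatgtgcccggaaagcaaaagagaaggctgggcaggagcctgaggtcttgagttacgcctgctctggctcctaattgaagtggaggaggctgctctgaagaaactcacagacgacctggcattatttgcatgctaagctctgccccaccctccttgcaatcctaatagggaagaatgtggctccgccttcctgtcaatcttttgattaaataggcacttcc

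GC content was 81.2% for Ank, 68.4% for Alpl, 62.4% for Entpd1 and 50.4% for Acpp, against a median of 52.4% over the 32851 RefSeq promoters of the same length. Another promoter, not printed, was listed for Alpl (56.0% GC, with a TATA box match and no GC box), Entpd1 (47.2% GC, no motif) and Slc20a1 (50.8% GC, 1 GC box). Which promoter these cells used was not tested. The capitals in Ank and in Alpl are 2 overlapping GC boxes each, and none of the searched motifs occurred in the Entpd1 and Acpp windows. Over the first promoters of the 8 genes, 6 held a GC box (GGGCGG or its complement, in 32.7% of all promoters), 2 a RUNX core (ACCACA, 14.05%), 2 an E-box (CACGTG, 6.02%), 1 an AP-1 element (TGANTCA, 6.75%) and 0 a TATA box (TATAAA, 12.4%), on either strand. These are matches of letters only.

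Alpl (ENSMUSG00000028766.6, minus strand of chromosome 4 from 137741733 to 137796384) encodes the phosphatase that destroys pyrophosphate at the cell surface of mineralizing cells. Its level was 3.07 CPM in NDP10.2, 0.390 in NPD3, 1.81 in NPD4 and 0.738 in NPD9.2 at E12.5. In the newborn litters it was 20.4 CPM in NPD26, 31.0 in NPD27, 38.1 in NPD28 and 31.1 in NPD30, the order in which litters are given from here on. Every P0 litter was above every E12.5 litter, and the E12.5 values of NPD3 and NPD9.2 rested on 2 and 3 reads. Mean abundance was 1.50 ± 1.21 CPM before and 30.2 ± 7.30 CPM after the transformation (SD, n = 4 each), which made the log2 fold change 4.31 (SE 0.52). The summed osteoblast markers, a list without Alpl, were also higher in each P0 litter than in any E12.5 litter. Within the list Ibsp was at 0 to 0.390 CPM at E12.5 and 245 to 526 CPM at P0. Sp7 was at 1.48 to 1.95 CPM at E12.5 and 26.6 to 49.4 CPM at P0, whereas Runx2 overlapped between the stages. Bglap, also in the list, was near the floor at both stages, at 0 to 0.363 CPM and 0.471 to 1.30 CPM. The part of osteoblasts in the Alpl difference was not tested.

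Enpp1 (ENSMUSG00000037370.9, minus strand of chromosome 10 from 24637914 to 24712159), which makes the pyrophosphate that Alpl removes, differed far less. It measured 24.8, 39.2, 16.6 and 25.6 CPM in the embryonic litters, and 35.2, 52.5, 44.4 and 34.9 CPM in the newborn litters. The E12.5 litter NPD3 lay inside the P0 range, so the stages overlapped. The log2 fold change was 0.66 (SE 0.29), from 26.5 ± 9.39 to 41.7 ± 8.41 CPM (SD, n = 4 each).

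Within a library the ratio of Alpl reads to Enpp1 reads can be taken without any scaling between libraries. It is a ratio of RNA and not of enzyme activity, and in a bulk library the 2 RNAs need not come from the same cells. There were 12.4, 0.995, 10.9 and 2.88 Alpl reads per 100 Enpp1 reads in the embryonic litters, against 58.0, 59.1, 85.9 and 89.1 in the newborn ones. Per kilobase of exon, Alpl was thus at 0.0253 to 0.315 times the level of Enpp1 in the embryonic litters and at 1.48 to 2.27 times that level at birth. The litter with the highest ratio was NPD30. Of the P0 libraries it had the lowest macrophage marker sum and the highest osteoblast and hypertrophic chondrocyte marker sums. The part of these cells in the ratio was not tested.

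Ank (ENSMUSG00000022265.6, plus strand of chromosome 15 from 27466677 to 27594909) encodes the membrane protein through which ATP and pyrophosphate leave the cell. Its embryonic litters had 23.4, 26.3, 20.8 and 13.3 CPM and its newborn litters 59.9, 55.7, 43.8 and 82.6 CPM, with NPD30 the highest. The stages did not overlap, and the means were 20.9 ± 5.59 and 60.5 ± 16.3 CPM (SD, n = 4 each) with a log2 fold change of 1.53 (SE 0.28). Without NPD30 the log2 fold change was 1.31 (SE 0.28). An exon of Ank also holds the microRNA gene Mir7117 on the same strand.

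Abcc6 (ENSMUSG00000030834.5, minus strand of chromosome 7 from 45967555 to 46030302), a transporter of liver and kidney whose activity releases ATP from the cell, was near the floor. It had 13, 1, 4 and 7 reads in the embryonic litters, and 24, 22, 4 and 2 reads in the newborn ones. The stages overlapped, and the means of 1.37 ± 1.31 and 1.93 ± 1.80 CPM (SD, n = 4 each) gave a log2 fold change of 0.54 with an SE of 0.96. Without NDP10.2 it was 1.28, so 1 library moved it by more than its size.

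Phospho1 (ENSMUSG00000050860.6, plus strand of chromosome 11 from 95824499 to 95832140) encodes a phosphatase that releases phosphate from phosphocholine inside matrix vesicles, the particles in which skeletal mineral starts. Its reads numbered 0, 0, 0 and 3 in the embryonic litters and 4, 0, 17 and 4 in the newborn litters, and it did not pass the filter. Pooled over litters these were 3 and 25 reads, a rate ratio of 6.37 with an exact 95% interval of 1.94 to 33.0 that covers counting error only, and 17 of the 25 P0 reads came from NPD28. Its exons overlap those of Zfp652 on the same strand and of Abi3 on the other, and the strand setting used in counting was not given.

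The 2 broadly expressed sodium-phosphate cotransporters, PiT1 from Slc20a1 and PiT2 from Slc20a2, had unlike patterns. Slc20a1 (ENSMUSG00000027397.10, plus strand of chromosome 2 from 129198764 to 129211616) was the steadiest of the 10 genes, at 33.3, 38.4, 39.1 and 43.5 CPM in the embryonic litters, and 34.3, 37.1, 37.7 and 36.4 CPM in the newborn ones. The P0 values lay inside the E12.5 range, with a log2 fold change of -0.09 (SE 0.20). Slc20a2 (ENSMUSG00000037656.8, plus strand of chromosome 8 from 22476788 to 22569612) had 40.1, 28.3, 23.7 and 45.2 CPM in the embryonic litters but 18.4, 11.1, 17.4 and 13.9 CPM in the newborn ones. All P0 litters lay below all E12.5 litters, from 34.3 ± 10.03 to 15.2 ± 3.34 CPM (SD, n = 4 each), a log2 fold change of -1.17 (SE 0.29).

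The ratio of reads of the 2 transporter genes followed the same split. There were 82.9, 136, 165 and 96.2 Slc20a1 reads per 100 Slc20a2 reads in the embryonic litters, against 186, 334, 216 and 261 in the newborn ones, without overlap. The highest Slc20a2 levels were those of NDP10.2 and NPD9.2, the libraries with the smallest share of reads on genes, and without both of them its log2 fold change was -0.81 (SE 0.31) and no longer past the call threshold. Markers of primitive red cells and of sclerotome were also higher in the embryonic libraries than in the newborn ones: 3 primitive erythroid markers summed to 8120 to 32815 CPM against 2.12 to 7.07 CPM, and 6 sclerotome markers to 113 to 168 CPM against 4.83 to 13.6 CPM. The part of these cells in the Slc20a2 difference was not tested. Exons of Slc20a2 overlap Smim19, and those of Slc20a1 overlap Gm4430 and 9830144P21Rik, all on the opposite strand.

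**Figure D2:**
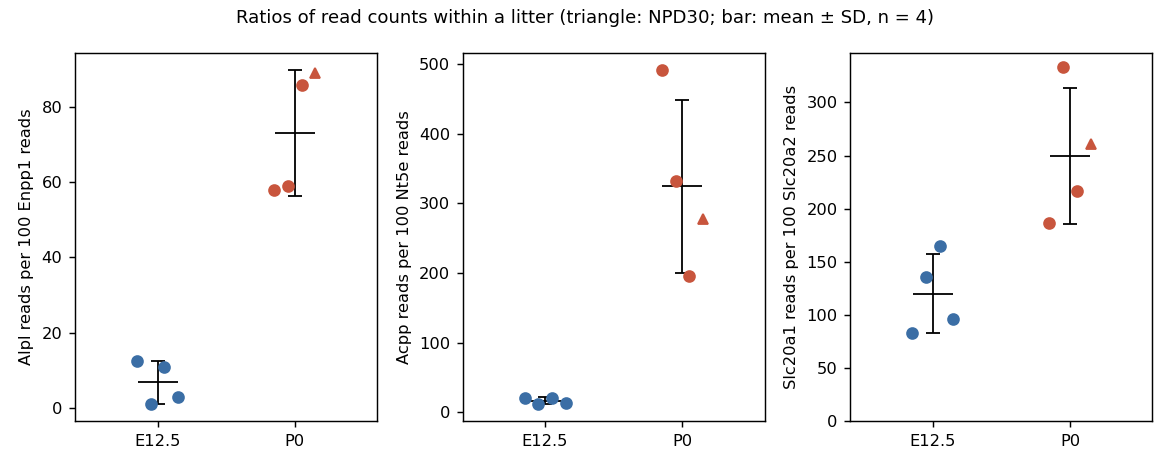
Number of reads of 1 gene per 100 reads of another within each litter (y axis) at E12.5 (blue) and P0 (red, NPD30 as a triangle), with mean and SD over 4 litters. The P0 litters lie above the E12.5 litters in all 3 panels: 58.0 to 89.1 against 0.995 to 12.4 for Alpl over Enpp1, 196 to 491 against 11.4 to 20.8 for Acpp over Nt5e, and 186 to 334 against 82.9 to 165 for Slc20a1 over Slc20a2.

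Entpd1 (ENSMUSG00000048120.12, plus strand of chromosome 19 from 40612366 to 40741602) encodes CD39, an ectoenzyme best known from leukocytes and the lining of blood vessels. Its level was 2.83, 4.49, 12.1 and 3.93 CPM in the embryonic litters, and 107, 139, 104 and 15.5 CPM in the newborn ones. NPD30 stood apart from the other P0 litters and only just above the highest E12.5 litter, NPD4. The means were 5.84 ± 4.23 and 91.2 ± 52.9 CPM (SD, n = 4 each), with a log2 fold change of 3.92 (SE 0.69). Without NPD30 the log2 fold change was 4.23 (SE 0.44), and without NPD4 it was 4.58 (SE 0.73).

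Among the P0 litters Entpd1 and the leukocyte markers were both lowest in NPD30, and their order in the other P0 litters differed. The macrophage markers, at 4665, 5192, 1678 and 61.4 CPM in NPD26, NPD27, NPD28 and NPD30, had the same order as Entpd1 over the P0 litters. The 6 leukocyte markers summed to 35.7 to 73.3 CPM at E12.5 and to 1913, 2238, 2271 and 192 CPM in NPD26, NPD27, NPD28 and NPD30, none of them at 0 in any library. The 6 endothelial markers summed to 71.6 to 150 CPM in the embryonic litters and to 23.2 to 110 CPM in the newborn ones, which overlap. Their sum was highest in NPD4 at E12.5 and in NPD27 at P0, the litters with the highest Entpd1 of each stage. In NPD26, NPD28 and NPD30 the endothelial sum was 44.2, 38.4 and 23.2 CPM, below every E12.5 litter. Entpd1 in these litters was 107, 104 and 15.5 CPM, above every E12.5 litter. The part of any of these cell types in the Entpd1 difference was not tested. In NPD30, where the macrophage markers were at the E12.5 level and the leukocyte markers above it, Entpd1 was at 14.4% of the median of the other 3 P0 litters.

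Nt5e (ENSMUSG00000032420.7, plus strand of chromosome 9 from 88327197 to 88372092), the enzyme that turns AMP into adenosine, was at 3.54, 6.83, 2.90 and 3.69 CPM in the embryonic litters, against 7.23, 10.4, 34.7 and 14.3 CPM in the newborn ones. The stages did not overlap, but the lowest P0 litter was only slightly above the highest E12.5 litter. The means were 4.24 ± 1.76 and 16.6 ± 12.4 CPM (SD, n = 4 each), and the log2 fold change was 1.98 (SE 0.52). NPD28 carried much of this, and without it the log2 fold change was 1.33 (SE 0.45) and no longer past the call threshold. NPD28 was also the P0 litter with the highest sum of 7 neutrophil markers, 5917 CPM against 688 to 887 CPM in the other P0 litters and 4.01 to 15.8 CPM at E12.5. Among the P0 litters S100a8, S100a9, Ngp, Camp and Ltf were highest in NPD28, whereas Elane and Mpo were lowest there, at 1.29 and 22.8 CPM. The part of neutrophils was not tested.

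Acpp (ENSMUSG00000032561.10, minus strand of chromosome 9 from 104288251 to 104337748) encodes an acid phosphatase known from prostate and from pain-sensing neurons, where its membrane form makes adenosine from AMP. It had 3, 4, 5 and 2 reads in the embryonic litters, and 226, 239, 578 and 261 reads in the newborn ones. In CPM this was 0.708, 0.781, 0.604 and 0.492 at E12.5, near the floor of 3 counts, and 35.5, 34.5, 68.0 and 39.6 at P0. The log2 fold change was 6.06 (SE 0.38), the largest of the 9 genes, and the E12.5 level behind it rests on 2 to 5 reads per library. It was 5.78 without NPD28, the litter with the highest level, and 6.07 without NPD30. NPD28 was also the litter with the highest neutrophil marker sum, given above for Nt5e, and the part of these cells in the Acpp difference was not tested.

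In NPD30, where the macrophage markers summed to 61.4 CPM, Alpl stood at 31.1, Acpp at 39.6 and Ank at 82.6 CPM, which were 100.2%, 111% and 148% of the median of the other P0 litters. Its leukocyte marker sum was 192 CPM and its neutrophil marker sum 887 CPM, both above the E12.5 range. That library had the highest T level, 2323 CPM, and the highest osteoblast marker sum, 12127 CPM.

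**Figure D3:**
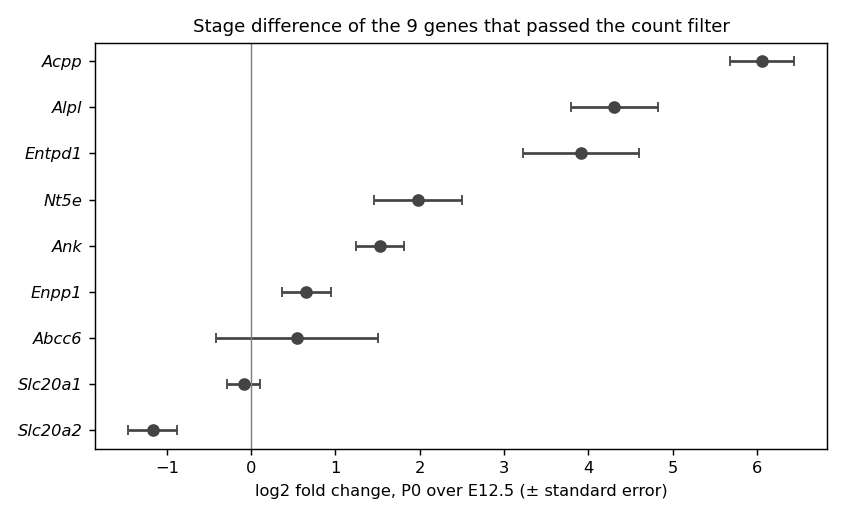
Log2 fold change of P0 over E12.5 (x axis) with its standard error (bars) for the 9 genes that passed the filter on low counts, n = 4 litters per stage. Acpp at 6.06, Alpl at 4.31 and Entpd1 at 3.92 lie to the right, Slc20a1 at -0.09 sits at 0, and Slc20a2 at -1.17 is to the left.

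Compared per length of exon, the order of the 10 genes changed between the stages. At E12.5 the phosphate transporters and the exporter led, with Slc20a1 at 6.91 ± 0.753, Ank at 5.80 ± 1.55 and Slc20a2 at 5.52 ± 1.61 CPM per kilobase (SD, n = 4), followed by Enpp1 at 2.59 ± 0.915 and Entpd1 at 1.05 ± 0.757. The other 5 genes were between 0.0881 and 0.493 CPM per kilobase, and the litters of every pair of neighbours in the order overlapped. At P0 Ank led at 16.8 ± 4.50 and Entpd1 followed at 16.3 ± 9.48 CPM per kilobase. Alpl at 7.48 ± 1.81, Slc20a1 at 6.51 ± 0.264, Acpp at 6.06 ± 2.17 and Enpp1 at 4.07 ± 0.820 came next, and Slc20a2, Nt5e, Phospho1 and Abcc6 were last at 2.45, 1.94, 0.399 and 0.337 CPM per kilobase. Of these neighbours at P0, Enpp1 and Slc20a2 were the pair whose litters did not overlap.

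The 2 genes that make adenosine from AMP also changed places. There were 20, 11.4, 20.8 and 13.3 Acpp reads per 100 Nt5e reads in the embryonic litters, against 491, 332, 196 and 278 in the newborn ones, so that per kilobase Acpp was below Nt5e at E12.5, at 0.134 to 0.244 times its level, and above it at P0, at 2.30 to 5.77 times. For the step before, the ratio of Entpd1 to Nt5e per kilobase was 1.01 to 6.42 in the embryonic litters and 1.67 to 22.8 in the newborn ones, and NPD30 at 1.67 and NPD28 at 4.60 lay within the E12.5 range.

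The other genes of these pathways were taken as a list of 75 genes in 14 groups, of which 52 passed the filter. Of the 52, 25 were higher at P0 and 1 was lower at an adjusted p of 0.05 in edgeR's quasi-likelihood test with Benjamini-Hochberg adjustment over all genes, and 26 were not called. This was 50% called, beside 27.9% of all genes tested, and the median log2 fold change was 1.16 beside 0.04. The list was chosen with earlier results of these data known, so nothing is read from these shares. Without the E12.5 litters NDP10.2 and NPD9.2, 17 of the pathway genes were called, 16 of them higher. The plot of the pathway by group shows where they fell.

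**Figure D4:**
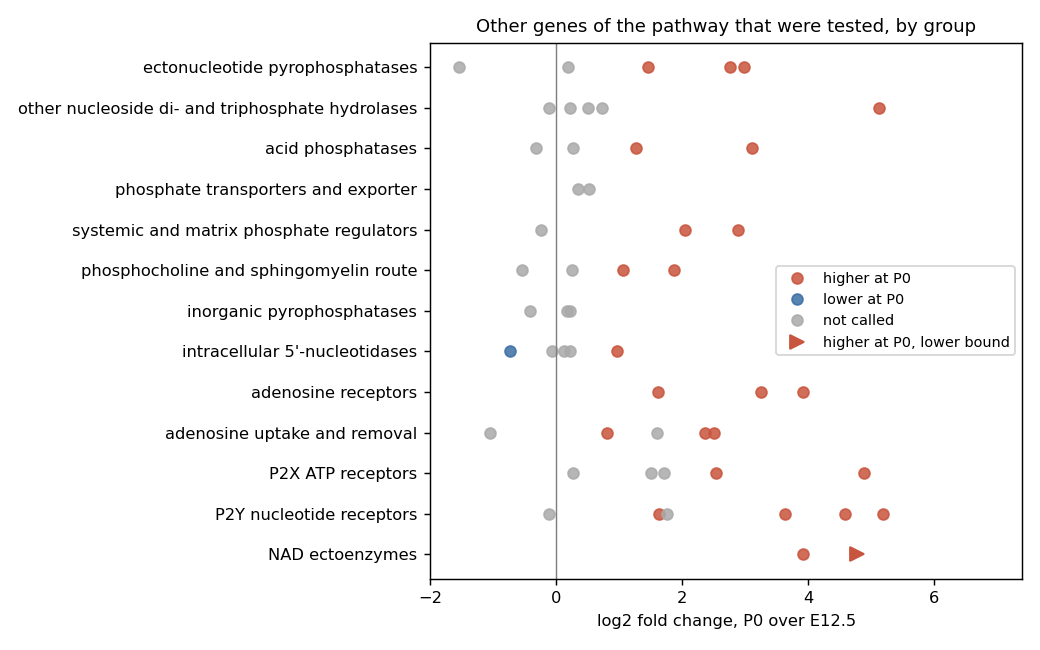
Log2 fold change of P0 over E12.5 (x axis) for the 52 pathway genes tested, by group (rows), colored by the call at an adjusted p of 0.05. The 3 adenosine receptors tested were all called higher, the 2 phosphate transporters and the 3 inorganic pyrophosphatases were not called, and the triangle marks the lower bound of Bst1, which had no read at E12.5.

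Among relatives of Enpp1, 3 of 5 tested were higher at P0. Enpp2, which encodes autotaxin and makes lysophosphatidic acid rather than pyrophosphate, ranged from 22.9 to 35.5 CPM in the embryonic and from 117 to 263 CPM in the newborn litters, which made its log2 fold change 2.77 (SE 0.30, edgeR adjusted p = 0.000192). Enpp6, a choline phosphodiesterase, was at 1.01 ± 0.873 and 8.05 ± 3.07 CPM (SD, n = 4 each; edgeR adjusted p = 0.0101), and Enpp4 had a log2 fold change of 1.46 (edgeR adjusted p = 0.0136). Of the relatives of Entpd1, 1 of 5 tested was called: Entpd3, a surface enzyme that also strips ATP and ADP, went from 0.290 ± 0.131 to 11.4 ± 3.41 CPM (SD, n = 4 each), a log2 fold change of 5.12 (SE 0.51, edgeR adjusted p = 0.000147). Its E12.5 litters were at or under 0.484 CPM, from 1, 1, 4 and 1 reads, and its lowest P0 litter was at 8.36 CPM. The E12.5 level behind this fold change is therefore near the floor of 3 counts. Cant1, the most abundant of that group, gave 0.51 (edgeR adjusted p = 0.194).

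None of the 3 other alkaline phosphatase genes passed the filter. Akp3, the one with the highest mean over the 8 litters, did not exceed 0.315 CPM, and the highest value of any of them was 0.577 CPM, for Alppl2 in NPD27. Of the acid phosphatases other than Acpp, Acp5 and Acp2 were called and Acp1 and Acp6 were not. Acp5, the tartrate-resistant phosphatase of osteoclasts and macrophages, was at 6.24 to 21.1 CPM at E12.5 and at 169, 159, 68.7 and 19.6 CPM in NPD26, NPD27, NPD28 and NPD30, with a log2 fold change of 3.11 (edgeR adjusted p = 0.00593). NPD30 was inside the E12.5 range. The 5 osteoclast markers, Acp5 among them, summed to 19.0 to 29.8 CPM before and 214 to 1207 CPM after. In NPD28, where the sum was highest, 1059 CPM of it was Mmp9. At P0 Ctsk was at 76.3 to 196 CPM, Calcr at 0.152 to 3.61 CPM and Ocstamp at 0 to 6.06 CPM. The part of osteoclasts was not tested. The lysosomal Acp2 had a log2 fold change of 1.27 (edgeR adjusted p = 0.0444), and that call held in 1 of the 8 fits that left out a litter, the one without NPD30.

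For phosphate itself, neither the mitochondrial carrier Slc25a3 (log2 fold change 0.36, edgeR adjusted p = 0.279) nor the exporter Xpr1 was called, and the kidney transporters Slc34a1, Slc34a2 and Slc34a3 did not pass the filter. Of the regulators, Phex, an endopeptidase of bone cells, rose from 4.23 ± 4.16 to 30.4 ± 11.2 CPM (SD, n = 4 each; log2 fold change 2.89, edgeR adjusted p = 0.0098), and without NPD9.2 its log2 fold change was 3.74. Galnt3, which protects the hormone FGF23 from cleavage, had a log2 fold change of 2.05 (edgeR adjusted p = 0.0196), with NPD30 highest at 243 CPM. This call was lost without NPD9.2, at an edgeR adjusted p of 0.0623.

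Smpd3, a sphingomyelinase that feeds phosphocholine to the product of Phospho1, had a log2 fold change of 1.88 (edgeR adjusted p = 0.0229). Without NPD4 it was 2.74, and the call was lost without NDP10.2 and without NPD9.2. Pcyt1a, the enzyme that draws phosphocholine into lipid, ranged from 31.6 to 46.1 CPM before and from 67.8 to 92.8 CPM after the transformation (log2 fold change 1.06, edgeR adjusted p = 0.00497). The 3 inorganic pyrophosphatases, which split pyrophosphate inside the cell, were not called, and the most abundant, Ppa1, gave -0.42 (edgeR adjusted p = 0.198). The intracellular 5'-nucleotidases had 1 gene higher, 1 lower and 3 not called, with Nt5c3, the most abundant, at -0.06 (edgeR adjusted p = 0.853). The called pair, named after their values were seen, were Nt5c2 at 0.97 and Nt5c3b at -0.73 (edgeR adjusted p = 0.0125 and 0.0438). The call of Nt5c3b, the only pathway gene called lower, held in 2 of the 8 fits that left out a litter, those without NPD9.2 and without NPD30, and it was lost without a filter.

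Receptors for adenosine, the end product of Nt5e and Acpp, were higher at P0 in 3 of 3 tested. Adora2a, a receptor that raises cyclic AMP, was at 3.30, 3.32, 3.02 and 4.92 CPM in the embryonic litters, against 22.3, 14.1, 47.7 and 54.3 CPM in the newborn ones, with a log2 fold change of 3.26 (SE 0.46, edgeR adjusted p = 0.00072). Adora2b, a lower-affinity receptor of the same kind, was at 0.944, 0.585, 0.846 and 0.738 CPM and at 10.1, 8.36, 13.1 and 16.8 CPM, with a log2 fold change of 3.92 (SE 0.44, edgeR adjusted p = 0.000241). Both were highest in NPD30. Adora1, which lowers cyclic AMP, had a log2 fold change of 1.62 (edgeR adjusted p = 0.0141), and Adora3 did not pass the filter.

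Of the genes for adenosine uptake and removal, 3 of 5 tested were higher. Slc29a1, the main equilibrative nucleoside transporter of the plasma membrane, ranged from 11.3 to 29.3 CPM in the embryonic and from 67.3 to 142 CPM in the newborn litters (log2 fold change 2.50, SE 0.35, edgeR adjusted p = 0.000673). Slc29a3, a transporter of lysosomes, had a log2 fold change of 2.36 (edgeR adjusted p = 0.00323). Adk, the kinase that turns adenosine back into AMP and named after its value was seen, gave 0.81 (edgeR adjusted p = 0.0287).

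Of the receptors for ATP, ADP and UDP, 2 of 5 P2X genes and 4 of 6 P2Y genes tested were higher at P0, and in some of them the P0 litters were far apart. P2rx7, an ATP-gated channel of macrophages, was at 0.781 to 3.20 CPM at E12.5 and at 61.2, 103, 29.9 and 3.03 CPM in NPD26, NPD27, NPD28 and NPD30 (log2 fold change 4.89, edgeR adjusted p = 0.00416, and 4.24 without NPD27). P2ry6, the UDP receptor, was at 1.56 to 3.69 CPM at E12.5 and at 132, 174, 47.7 and 1.82 CPM in the same P0 litters (log2 fold change 5.19, edgeR adjusted p = 0.00577). P2ry12, the ADP receptor of platelets and microglia, had a log2 fold change of 3.64 (edgeR adjusted p = 0.0207) that was lost in 6 of the 8 fits without a litter and was 2.95 without NPD26. In each of these 3 genes NPD30 was inside or below the E12.5 range.

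P2ry13, another ADP receptor (log2 fold change 4.59, edgeR adjusted p = 0.00205), the ATP-gated channel P2rx4 (2.53, edgeR adjusted p = 0.00303) and the NAD-consuming ectoenzyme Cd38 (3.92, edgeR adjusted p = 0.00301) were also lowest at P0 in NPD30, at 6.43%, 27.6% and 8.20% of the median of the other P0 litters. P2ry1, an ADP receptor, was not, at 8.24 to 15.1 CPM at P0 against 2.59 to 5.68 CPM at E12.5 (log2 fold change 1.64, edgeR adjusted p = 0.00943). Bst1, a relative of Cd38, had no read at E12.5 and 5.35, 7.79, 47.2 and 5.46 CPM at P0, which was at least 27.5-fold higher than the floor of 3 counts per library (edgeR adjusted p = 0.00546). NPD28 carried much of this, and without it the bound was 10.4-fold. P2rx7, P2ry6, P2ry12, P2ry13, P2rx4 and Cd38 were lowest in NPD30, where the macrophage marker sum was lowest too, and the part of these cells was not tested. With limma-voom in place of edgeR, P2rx7, P2ry6, P2ry12, P2ry13 and Cd38 were not called.

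The plot of NPD30 against the other P0 litters sets the genes side by side. Of the 23 pathway genes called with a fold change over 2 and higher at P0, NPD30 was the lowest P0 litter in 12 and the highest in 7, and it was above every E12.5 litter in 18. The 7 were Enpp2, Entpd3, Phex, Galnt3, Smpd3, Adora2a and Adora2b. The 5 in which it was not above every E12.5 litter were Acp2, Acp5, P2rx7, P2ry6 and P2ry12. How often NPD30 took these places over all genes called higher at P0 was not counted, so nothing is read from these numbers. Without NPD30 28 of the pathway genes were called, 27 of them higher.

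**Figure D5:**
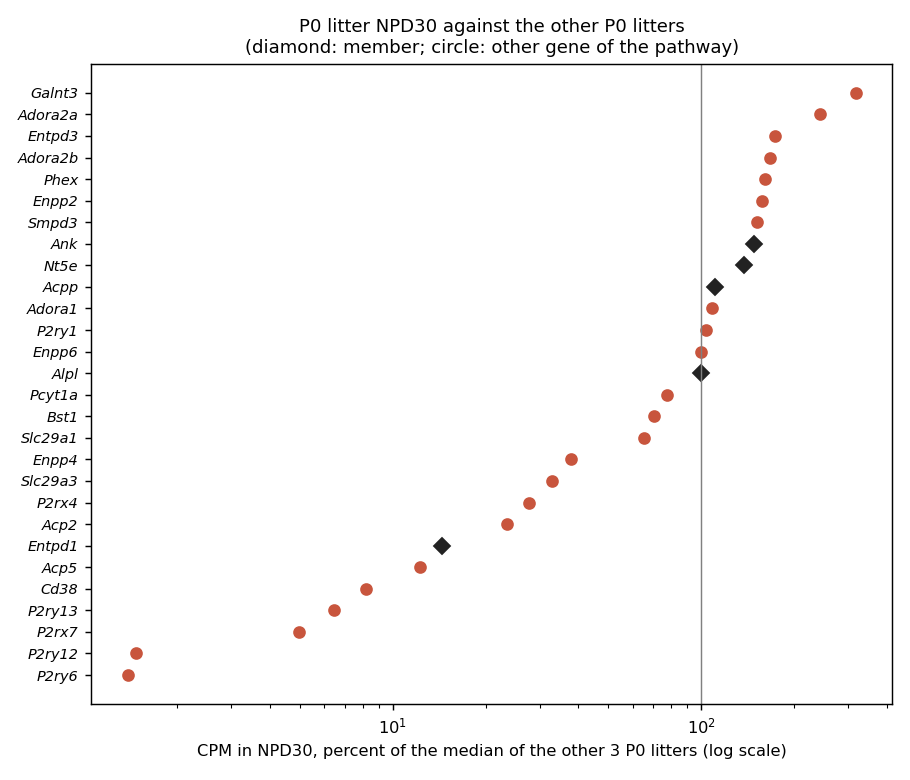
Level of each gene in the P0 litter NPD30 as a percent of the median of the other 3 P0 litters (x axis, log scale; the line is at 100) for the 5 members higher at P0 (diamonds) and the 23 pathway genes called higher with a fold change over 2 (circles). Entpd1 at 14.4% lies with Acp5 and Cd38, whereas Alpl at 100.2%, Acpp at 111%, Nt5e at 137% and Ank at 148% lie at or above 100%, as do the adenosine receptors at 108% to 243%.

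The genes whose level ran most like each member over the 8 litters were sought among 12680 tested genes whose mean log2 CPM was 2 or more. The correlations are of log2 CPM over 8 libraries of 2 stages, so that any gene with a like stage difference scores high. For Acpp they were Abcb4 (Pearson r 0.997), Prkca (0.991) and Kcnt1 (0.989), and for Alpl they were Ankrd13c (0.984), Prkca (0.983) and Kcnab2 (0.977). Entpd1 ran most like Wdr7 (0.992), Arpc5 (0.991) and Atp6v1b2 (0.991), Ank like Snx10 (0.984), Dynlt3 (0.978) and Necap1 (0.973), and Nt5e like Lnpep (0.977), Atxn7 (0.976) and Stfa1 (0.972). Slc20a2 ran most like Ewsr1 (0.985), 2410002F23Rik (0.981) and Hspa12b (0.980). Of the genes whose stages overlapped, the closest were Pik3r1 (0.963), Zscan26 (0.955) and Grk3 (0.942) for Enpp1 and Bax (0.968), Asna1 (0.966) and Fibp (0.936) for Abcc6.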

How the data were processed

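RNA of 8 litters, 4 at E12.5 and 4 at P0, was sequenced as single pooled libraries, which the study calls biological replicates. Per the labels and the study's methods, the authors aligned reads to GRCm38 with STAR 2.4.0j. The deposited values are raw htseq-count counts on the genes of Gencode M4 and carry no normalization. The strand setting of the counting is not given in the sources used here, so overlapping genes may share or lose reads. Stages were taken from the labels.

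Of 43346 identifiers, 42462 were matched to Gencode M21 on GRCm38 for symbols, positions and exon lengths, and 5 tally lines that name no gene were left out. Counts were tested in R 4.3.3 with edgeR 4.0.16 (TMM, filterByExpr with a minimum count of 10 and a minimum total of 15, robust quasi-likelihood F-test, no covariate), and Benjamini-Hochberg adjustment ran over 15467 genes. A standard error is the size of the log2 fold change divided by the square root of F. For log2 CPM the prior count was 2. The steps were tested on simulated data. DESeq2 1.42.0 and limma 3.58.1 served as alternatives. Counting intervals and the floor cover counting error only.

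The members, the pathway list and the marker lists were chosen with earlier results of these data known. Named were every member, the pathway genes past an adjusted p of 0.05 and a fold of 2 (at most 25), the most abundant gene of each pathway group, and the 3 genes most like each member tested, which for Slc20a1 are not reported here. The order of litters in the text is that of the labels and carries no meaning.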

Additional observations from a re-analysis of the deposited data

Results flagged for a closer look

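In 74 groups of 4 litters, each the 4 values of a member or named pathway gene at a stage, 4 held a litter whose distance from the nearest other litter took up almost the whole range of the group, and chance alone singles out about 1 in 20 such groups. Entpd1 in the P0 litter NPD30 was at 15.5 CPM, where the other P0 litters were at 104 to 139 CPM. P2ry13 stood apart in the same litter and the same direction, at 2.27 CPM beside 28.5 to 41.1 CPM. In NPD30 the macrophage markers summed to 61.4 CPM, beside 1678 to 5192 CPM in the other P0 litters, and the part of these cells in either gene was not tested. Bst1 in the P0 litter NPD28 was at 47.2 CPM beside 5.35 to 7.79 CPM. NPD28 also had the highest neutrophil marker sum, 5917 CPM, but the lowest P0 levels of the markers Elane and Mpo. Phospho1 in the E12.5 litter NPD9.2 was at 0.738 CPM, which was 3 reads, where the other E12.5 litters had none.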

How the results depend on the processing

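No paired analysis was possible because the litter names share no numbers between the stages. The number of genes called, 4321 as reported, was 3612 to 4529 with 1 litter left out, and the number of pathway genes called, 26 as reported, was 22 to 28. The members past the call threshold numbered 5 to 7 in these fits: Nt5e was not past it without NDP10.2 or without NPD28, and Enpp1 was past it without NPD3. With DESeq2 size factors, no filter, DESeq2's Wald test and limma-voom, the same 6 members were past it. The genes were chosen with this contrast in view, so nothing is read from which members passed. Without the litters NDP10.2 and NPD9.2, left out together after the data were seen, 2581 genes and 17 pathway genes were called, 16 of them higher, the Abcc6 log2 fold change was 2.33, and Acpp, Alpl, Ank and Entpd1 were past the threshold. Fewer samples enter that fit, in which Enpp4, Acp2, Galnt3, Smpd3, Pcyt1a, Adora1, Slc29a3, P2ry1, P2ry6 and P2ry12 were not called and Cant1 was. The count of pathway genes called lower, 1 as reported (Nt5c3b), was 2 with DESeq2's Wald test, 0 without a filter and with a fold over 2 required, and 0 to 1 with 1 litter left out. It was 1 without NDP10.2 and NPD9.2, but that gene was Acp1. The log2 fold change of Nt5c3, never called, was -0.19 to 0.022 with 1 litter left out and changed sign without NPD28. With limma-voom P2rx7, P2ry6, P2ry12, P2ry13, Cd38 and Acp2 were not called, at adjusted p of 0.18, 0.283, 0.431, 0.145, 0.0506 and 0.123, and without a filter Galnt3, Smpd3 and P2ry12 were not, at 0.0896, 0.0504 and 0.105. The cause was not tested. Without a filter the median log2 fold change of all genes was 0.45 instead of 0.04. The depth limits Phospho1 and Abcc6 throughout and the E12.5 values of Acpp, Alpl and Entpd3, which rest on a few reads per litter.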
